A study of Chlorocebus sabaeus with 45 samples.

Results

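The suppressors of cytokine signaling (SOCS) form a family of intracellular inhibitors, here SOCS1 to SOCS7 and their relative CISH. They were found by gene symbol in the expression tables of vervet whole blood, where all 8 were present among 33994 rows. All 8 were also among the 18753 genes with more than 0.5 CPM (fragments scaled to a common library total) in at least 3 libraries, on which the tests were run. The blood came from 15 wild-born juvenile male Caribbean vervets (Chlorocebus sabaeus), each of which gave 1 library per time point. Day 0 (Tp1) was in the field right after trapping, and day 3 (Tp2) and day 14 (Tp4) fell within quarantine in individual cages (the sample labels give day 14 for Tp4, the series text day 15), a psychosocial stressor (PS) of relocation and social separation. No animal stayed outside quarantine as a control, so day 0 is the baseline. Field samples were drawn under ketamine and xylazine and later ones under dexmedetomidine and midazolam, so place, sedation and time cannot be told apart in any comparison with day 0.

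A cytokine that binds its receptor activates Janus kinases (JAKs), which phosphorylate STAT transcription factors, and the STATs switch on SOCS genes among others. The SOCS protein then binds the receptor or the kinase through its SH2 domain, and through its SOCS box it recruits elongins and a cullin ubiquitin ligase that marks the bound protein for degradation. In blood this feedback loop limits responses to interleukins, interferons and colony stimulating factors, and SOCS3 is best known in neutrophils and monocytes as the brake on interleukin 6 and granulocyte colony stimulating factor (G-CSF).

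Libraries held between 13216277 and 31469334 fragments on genes, with medians by day of 22963972, 22754349 and 22758495. The 20 most abundant genes took a median of 10.03%, 13.9% and 25.5% of the fragments. The deposited FPKM, which are fragments divided by gene length and library total, were therefore scaled between libraries with trimmed-mean-of-M-value (TMM) factors. All FPKM below are on that scale, and fold changes are log2 differences after 0.1 was added. Without TMM the typical tested gene had a log2 fold change (median) of −0.36 from day 0 to day 14 and −0.35 from day 3 to day 14, so changes are relative to the typical gene. On day 14 vs. day 0, 3518 genes were up and 3235 down with TMM, against 1460 and 7830 without it. Libraries of animal 9 on day 0 and animal 4 on day 14 stood apart with 30752 and 31402 genes above 0, where the medians were 22356, 21910 and 21016 by day, and results were also computed without them.

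Against the field baseline, SOCS3 was lower on days 3 and 14 and SOCS5 on day 14. The other 6 members did not pass the test in any comparison in the main model, SOCS1 coming closest. At an adjusted p-value under 0.05 (limma, Benjamini-Hochberg over all tested genes), 1 member (SOCS3) was lower on day 3 than on day 0, 2 (SOCS3 and SOCS5) were lower on day 14 than on day 0, and 0 differed between day 14 and day 3. The same test called 12.2% of all tested genes in the first comparison (6.19% down), 36% in the second (17.3% down and 18.8% up) and 13.3% in the third. Between day 3 and day 14, 0 members had an unadjusted p-value under 0.05, and 0 passed with the animal as a block or with limma-voom. The main model had no term for the animal, although the same animals were sampled on each day. With the block SOCS5 joined SOCS3 on day 3 (2 members) and SOCS1 joined both on day 14 (3 members), each against day 0. Its calls over all tested genes were 19.2%, 44% and 23.8% in the 3 comparisons. Without TMM, where the typical gene was lower on day 14, 7 members passed on day 14 vs. day 0, all downwards, where 49.5% of all tested genes passed (41.8% downwards). Their log2 fold changes were then −2.27 for SOCS3, −0.81 for SOCS5, −0.82 for SOCS1, −0.67 for CISH, −0.49 for SOCS7, −0.47 for SOCS4 and −0.41 for SOCS6, beside the median of −0.36 for all genes. On day 14 vs. day 3, 5 members (CISH, SOCS1, SOCS3, SOCS5 and SOCS7) then passed downwards, where 38.4% of all tested genes passed. The libraries of different days overlapped for all 8 members in each comparison, but the share of all tested genes that overlap was not counted. The median log2 fold change of the 8 members was −0.11 on day 3 and −0.17 on day 14, beside 0.01 and −0.02 for all tested genes. The comparisons with day 0 share the same 15 baseline libraries.

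**Figure D1:**
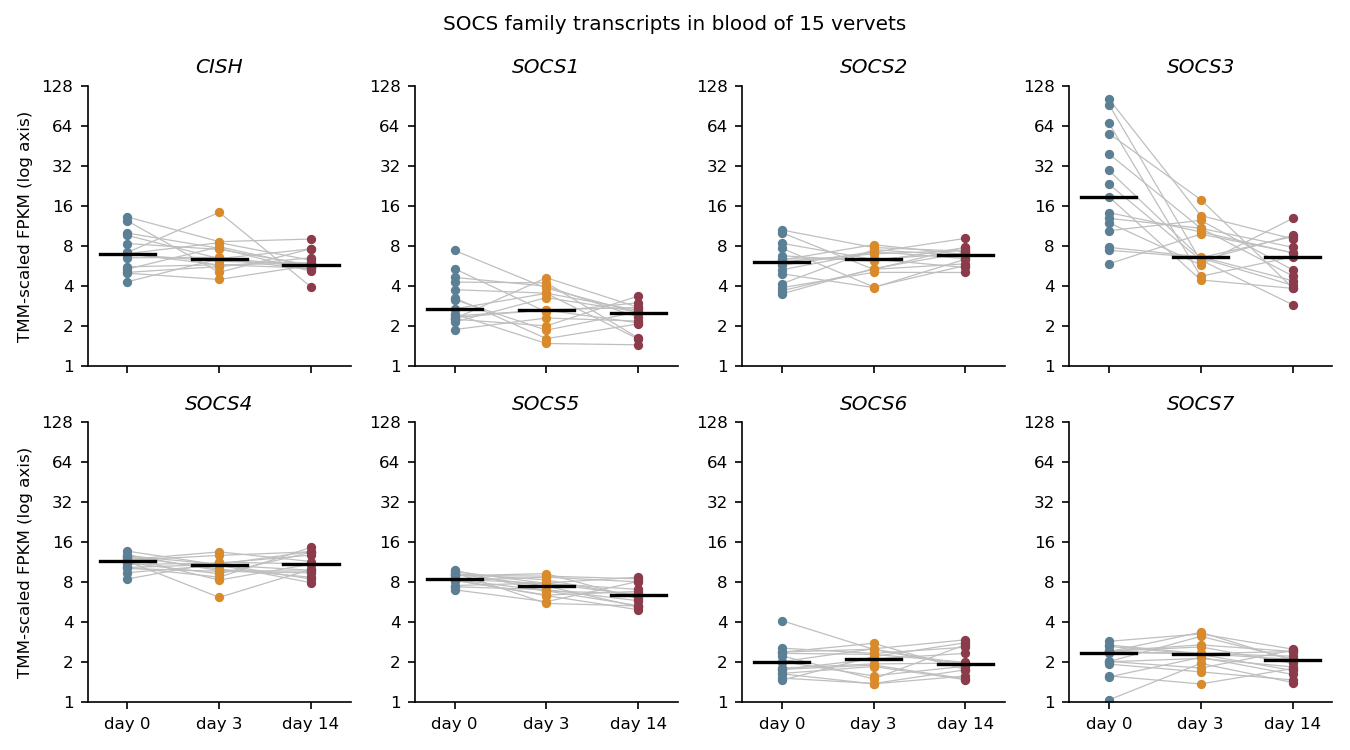
Level of each SOCS family transcript in TMM-scaled FPKM on a log axis, on days 0, 3 and 14, with 1 point per library, a thin line joining the libraries of each animal and a bar at the median of 15 animals. SOCS3 on day 0 spans 5.89 to 102 FPKM and narrows to between 2.91 and 12.9 on day 14, while the SOCS5 points shift down within a narrow band.

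SOCS3, which inhibits JAKs bound to the interleukin 6, leptin and G-CSF receptors, changed most within the family. On day 0 its lowest, median and highest levels were 5.89, 18.8 and 102 FPKM (33.4 ± 31.8, SD, n = 15). On day 3 they were 4.45, 6.65 and 17.9 FPKM (8.87 ± 3.81). On day 14 they were 2.91, 6.65 and 12.9 FPKM (6.60 ± 2.80). The time points overlapped, but the high end of the baseline was gone later: 8 of the day 0 libraries lay above every day 3 library and 10 above every day 14 library. Between 440 and 5190 fragments stood behind the day 0 values and between 177 and 679 behind those of day 14. At day 3 the fitted log2 change was −1.42 (standard error 0.33, adjusted p = 0.00383 from limma) with a fall in 13 of 15 animals. On day 14 it was −1.85 (standard error also 0.33, adjusted p = 2.68e-05) with a fall in 12 animals, a level 0.278 times that of the baseline. Larger falls than this were seen in 0.171% of tested genes on day 3 and 0.117% on day 14. Within animals the change on day 14 ran from −3.82 to 0.34 on the log2 scale, with a median of −2.26. Between day 3 and day 14 SOCS3 did not pass the test (−0.42, standard error 0.33, adjusted p = 0.391), with lower values in 11 animals.

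SOCS1, the inhibitor of interferon signaling and the closest relative of SOCS3 in mechanism, since both carry a region that blocks the kinase directly, was among the less abundant members. Its lowest, median and highest levels were 1.89, 2.70 and 7.42 FPKM on day 0. They were 1.48, 2.66 and 4.62 FPKM on day 3 and 1.45, 2.53 and 3.37 FPKM on day 14. The groups overlapped, and the 5 highest baseline libraries lay above every library of day 14. SOCS1 did not pass the test on day 3 (−0.15 on the log2 scale, standard error 0.17, adjusted p = 0.621) and missed it on day 14 (−0.41, standard error 0.17, adjusted p = 0.054), when it was lower in 10 of 15 animals. With the animal as a block the adjusted p on day 14 was 0.0291, and without the 2 libraries that stood apart it was 0.0287 with a log2 fold change of −0.48. Leaving out animals 3, 6, 9, 10, 13 or 14 (6 of 15 runs) also brought it under 0.05, with log2 fold changes between −0.51 and −0.44. In all of these but animal 6, SOCS1 was higher on day 14 than on day 0. The remaining runs did not pass, with adjusted p up to 0.121 (limma) and log2 fold changes up to −0.33. SOCS1 was also not called with the RNA integrity number as covariate.

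SOCS5 was the other member that fell. It belongs with SOCS4 to the branch of the family with a long amino-terminal region, known for acting on the epidermal growth factor receptor, and SOCS5 has also been linked to interleukin 4 signaling in T cells. Its lowest, median and highest levels were 7.03, 8.43 and 9.83 FPKM on day 0. They were 5.55, 7.501 and 9.30 FPKM on day 3 and 4.98, 6.41 and 8.75 FPKM on day 14. The groups overlapped, with 10 day 14 libraries below every baseline library. The log2 fold change at day 14 was −0.39 (standard error 0.08, adjusted p = 3.2e-04), with a fall in 13 of 15 animals. On day 3 it was −0.22 (standard error 0.08, adjusted p = 0.0749, limma) with lower values in 12 animals. Falls larger than those of SOCS5 were seen in 18.7% of tested genes on day 3 and 17.4% on day 14. The adjusted p on day 3 was 0.0496 with the animal as a block and 0.0499 without animal 4. The fall of SOCS5 was smaller than that of SOCS3 but rested on a narrow baseline after TMM, with a ratio of highest to lowest library of 1.40 against 17.3 for SOCS3. The SD of SOCS3 over animals on day 0 (log2 scale) was 1.35, and 1.13 without TMM. That of SOCS5 was 0.143, but 0.391 without TMM. SOCS4, its nearest relative, stayed between 8.48 and 13.7 FPKM on day 0, between 6.17 and 13.6 on day 3 and between 7.96 and 14.6 on day 14. Its log2 fold changes of −0.15 (adjusted p = 0.319) and −0.05 (adjusted p = 0.713, standard error 0.09) did not pass the test.

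CISH and SOCS2 act mainly on receptors that signal through STAT5, CISH on the interleukin 2 family in lymphocytes and SOCS2 on the growth hormone receptor. CISH had lowest, median and highest levels of 4.32, 7.02 and 13.3 FPKM on day 0, 4.49, 6.45 and 14.3 on day 3 and 3.95, 5.75 and 9.04 on day 14. It was lower in 11 of 15 animals on day 14, but the log2 fold change of −0.26 (standard error 0.14, adjusted p = 0.158) did not pass. SOCS2 had levels of 3.50, 6.09 and 10.6 FPKM on day 0, 3.90, 6.35 and 8.198 on day 3 and 5.07, 6.91 and 9.15 on day 14. Its log2 fold change of 0.19 on day 14 (standard error 0.13, adjusted p = 0.27) did not pass and had the opposite sign without TMM. SOCS6 and SOCS7, which are known for binding insulin signaling proteins, were the least abundant members. SOCS6 averaged 2.11, 2.06 and 2.08 FPKM by day and SOCS7 2.166, 2.37 and 2.01. Their log2 fold changes on day 14 were −0.01 (adjusted p = 0.957) and −0.08 (adjusted p = 0.621), with standard errors of 0.12. SOCS7 was lower on day 14 than on day 3 in 12 of 15 animals (−0.21, adjusted p = 0.228).

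**Figure D2:**
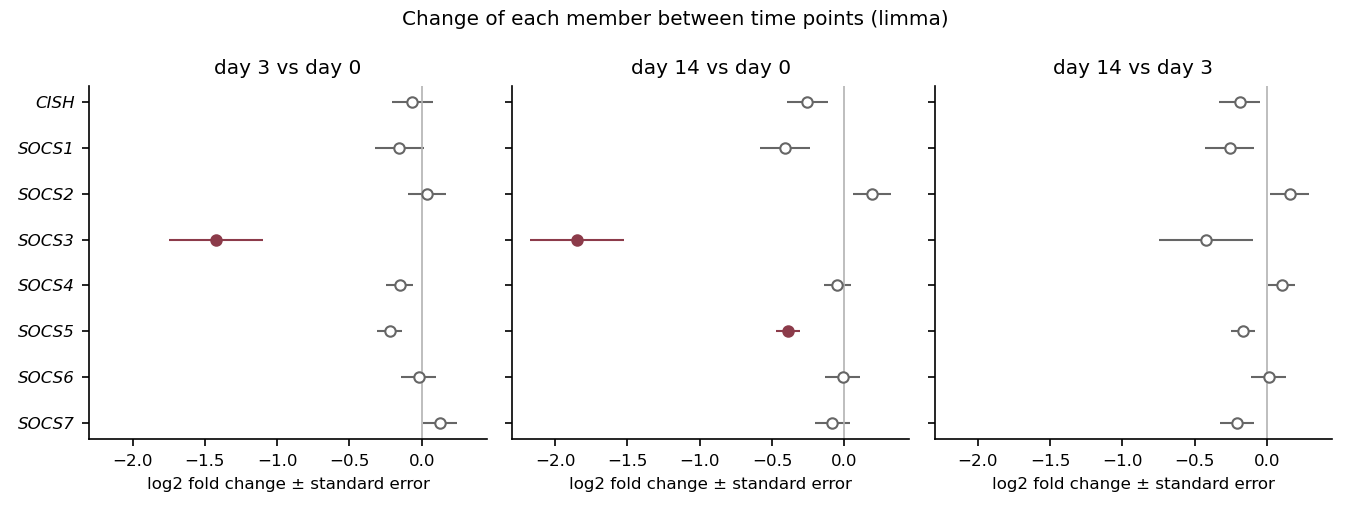
Log2 fold change of each SOCS family member with its standard error in the 3 comparisons, from limma over 15 animals per time point, with filled points for adjusted p-values under 0.05. SOCS3 is filled on day 3 and day 14 vs. day 0 at −1.42 and −1.85, SOCS5 on day 14 vs. day 0 at −0.39, and no point is filled on day 14 vs. day 3.

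The order of the members by mean FPKM, a level per length, changed around SOCS3. On day 0 it ran SOCS3, SOCS4, SOCS5, CISH, SOCS2, SOCS1, SOCS7 and SOCS6. Between neighbours in this order the mean log2 gap exceeded its SD over animals only for SOCS4 over SOCS5, which held in 15 of 15 animals, and for SOCS2 over SOCS1, which held in 14. SOCS3 stood above SOCS4 in 11 animals (mean gap 0.97 ± 1.43, SD). On day 14 the order ran SOCS4, SOCS2, SOCS5, SOCS3, CISH, SOCS1, SOCS6 and SOCS7. Then SOCS4 lay above SOCS2, and CISH above SOCS1, in 15 of 15 animals each, and the other neighbours did not differ beyond their spread. Of the summed FPKM of the 8 members, the share of SOCS3 was 36.8% ± 19.2 (SD, n = 15) at the baseline, and in quarantine it was 18.3% ± 5.70 (day 3) and 14.8% ± 5.19 (day 14). The share of SOCS4 went from 18.02% ± 7.10 to 22.1% ± 4.73 and 25.3% ± 3.73, although its own level did not pass the test. SOCS3 held the largest share in 11, 5 and 2 animals by day, and SOCS4 in the remaining 4, 10 and 13.

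**Figure D3:**
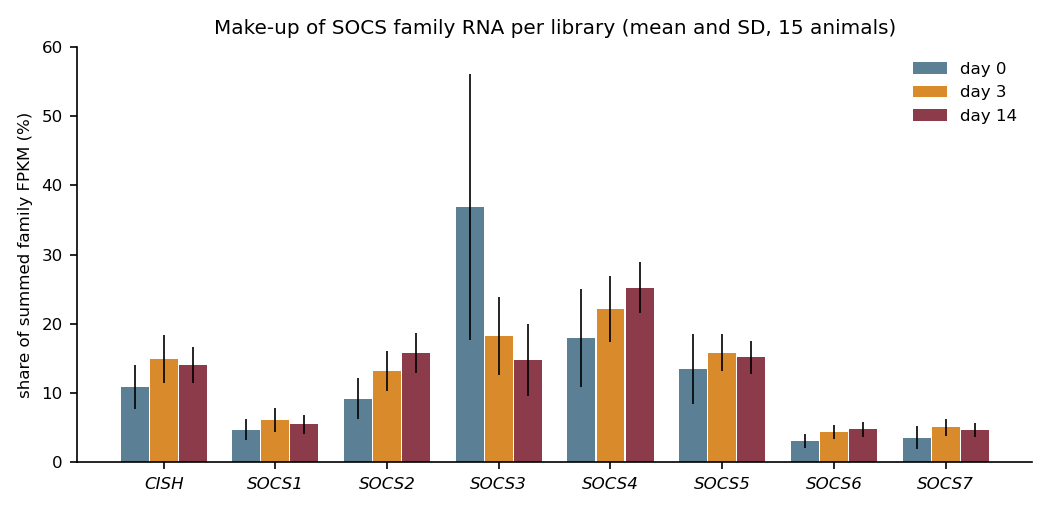
Mean share of each member in the summed FPKM of the SOCS family by day, in percent, with bars for the SD over 15 animals. SOCS3 is the tallest bar on day 0 at 36.8%, with an SD of 19.2, and SOCS4 is the tallest on day 14 at 25.3%.

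SOCS3 values were farther apart between animals at the baseline than later, but no gene passed correction in the test of spread. The mean absolute deviation of SOCS3 from the median of its time point was 1.12 on the log2 scale at the baseline and 0.493 and 0.508 in quarantine. The difference from day 0 had an unadjusted p of 0.00757 on day 3 and 0.0219 on day 14 (two-sided exact sign-flip test over 15 animals), with adjusted p = 0.657 and 0.475 over all tested genes. In 11 of 15 animals the deviation was larger on day 0. CISH (0.360 on day 0 and 0.186 on day 14, unadjusted p = 0.0315, exact sign-flip) and SOCS2 (0.387 and 0.169, unadjusted p = 0.0212, exact sign-flip) had the same order. SOCS5 had the reverse order, with 0.114 on day 0 and 0.215 on day 14 (unadjusted p = 0.035, exact sign-flip). The order of CISH turned without TMM, where it had 0.327 on day 0 and 0.339 on day 14 (unadjusted p = 0.918, exact sign-flip), while SOCS2, SOCS5 and SOCS3 kept theirs. The unadjusted p of SOCS2 and SOCS5 was then 0.219 and 0.154 (exact sign-flip), and that of SOCS3 was 0.0704 on day 3 and 0.0313 on day 14. After Benjamini-Hochberg adjustment the exact sign-flip test called 0% of tested genes in both comparisons, and 1616 genes had an unadjusted p under 0.05 on day 14 and 1291 on day 3. With deviations taken from the mean in place of the median it called 121 and 46 genes, none of them a member.

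Whole blood is a mixture of cells, and fewer cells of a type and less RNA per cell cannot be told apart in these libraries. Markers of several blood cell types moved strongly over the same days. Among all tested genes 6.04% rose and 6.19% fell on day 3, and 18.8% rose and 17.3% fell on day 14. Of 13 neutrophil markers tested 7 fell on day 3 and 12 on day 14, with a median log2 fold change of −1.34 on day 14, and the summed level of the 13 ranged from 1466 to 43519 FPKM on day 0 and from 542 to 4405 on day 14. Of 9 monocyte markers 1 rose and 2 fell on day 14 (median 0.05, summed range 788 to 7796 FPKM on day 0 and 897 to 2506 on day 14). All 11 reticulocyte markers rose (median 2.82, 467 to 24649 FPKM on day 0 and 7890 to 66583 on day 14), as did 5 of 8 NK cell markers (median 1.09) and 2 of 9 platelet markers (median 0.65, with 8 of 9 on day 3). Of 9 T cell markers 1 rose (median 0.22), and of 8 B cell markers 1 fell (median −0.40). These counts, and those of the monocyte and platelet lists on day 14, lay near or below the shares of all tested genes. The T cell list turned direction without TMM (0 rose and 2 fell, median −0.21), and then 7 B cell markers (median −0.82) and 4 monocyte markers (median −0.38) fell and none of either rose. Without TMM 7.79% of all tested genes rose and 41.8% fell. With the animal as a block 4 T cell markers and 5 platelet markers rose on day 14 and 3 B cell markers fell, with the same medians. In that model 23.0% of all tested genes rose and 21.0% fell. No marker was at 0 in every library of a time point. With RNA integrity in the model, 3 neutrophil markers passed on day 14, with a median log2 fold change of −1.07. No monocyte, T cell, B cell or platelet marker then passed (medians 0.03, 0.10, −0.45 and 0.58), while all 11 reticulocyte and 5 NK cell markers did. In that model SOCS3 (−1.83, adjusted p = 7.93e-04) and SOCS5 (−0.33, adjusted p = 0.0147) were called by limma, which is 2 of 8 members. Among all tested genes 19.9% passed in it on day 14 vs. day 0 (11.7% up and 8.13% down).

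The change of SOCS3 from day 0 to day 14 went with that of the myeloid markers from animal to animal. Across the 15 animals its log2 change had a Pearson's r of 0.80 and a Spearman's rho of 0.79 with the mean log2 change of the neutrophil list (adjusted p = 0.0108 for r and 0.00966 for rho, permutation test over 56 relations of 8 members with 7 lists). Without the 2 animals farthest from the median of the list r was 0.76. With the monocyte list r was 0.79 and rho 0.78 (adjusted p = 0.0126 and 0.0131, permutation test), and 0.74 without the 2 farthest. Without TMM r was 0.79 with the neutrophil list and 0.65 with the monocyte list, and the latter went to 0.30 without the 2 farthest animals. The 3 animals in which SOCS3 was higher on day 14 stood 0.92 on the log2 scale apart from the rest. Within the other 12 animals r was 0.71 with the neutrophil list and 0.73 with the monocyte list, and −0.46 and −0.71 with the T cell and B cell lists. These 12 were set apart by the SOCS3 change itself, so their r values are a description and no check on the relations. An r over the 3 set apart is not given, because they are too few. Over all 15 animals r with the T cell and B cell lists was −0.66 and −0.68 (adjusted p = 0.0456 and 0.0475, permutation test), and rho −0.55 and −0.72 (adjusted p = 0.222 and 0.0312). Both are dependent on scaling and were −0.31 and −0.34 without TMM (adjusted p = 0.378 and 0.333, permutation test). The part of these cell types in the fall of SOCS3 was not tested.

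SOCS3 had lower values relative to these lists as well. Its log2 level minus the mean log2 level of the neutrophil markers started at −1.39 ± 0.56 (SD, n = 15) and was −1.77 ± 0.55 at day 3 and −1.91 ± 0.56 at day 14. The change on day 14 was −0.52 ± 0.86, with lower values in 12 of 15 animals, while the list itself changed by −1.32 ± 1.11. Relative to the monocyte markers SOCS3 changed by −1.75 ± 1.11 on day 14, with lower values in 15 of 15 animals, where the list changed by −0.09 ± 0.47. These differences are given as values without a test.

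Other members had their own relations with the marker lists. The change of SOCS5 was more negative in animals whose reticulocyte markers went up more (r = −0.75, rho = −0.80, adjusted p = 0.0136 and 0.00966, permutation test), and r was −0.61 without the 2 farthest animals and −0.85 without TMM. The change of SOCS7 followed that of the B cell list (r = 0.84, rho = 0.81, adjusted p = 0.00448 and 0.00966, permutation test) with r = 0.84 also without the 2 farthest animals. It moved against the neutrophil list (r = −0.77, rho = −0.81, adjusted p = 0.0108 and 0.00966, permutation test), but this relation was −0.52 without TMM (adjusted p = 0.115). In all, 7 of the 56 relations passed, and all 7 belonged to SOCS3, SOCS5 or SOCS7, but without TMM 18 passed and they included relations of CISH, SOCS2, SOCS4 and SOCS6. All lists and members of an animal come from the same pair of libraries, and the part of reticulocytes in the fall of SOCS5 was not tested.

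**Figure D4:**
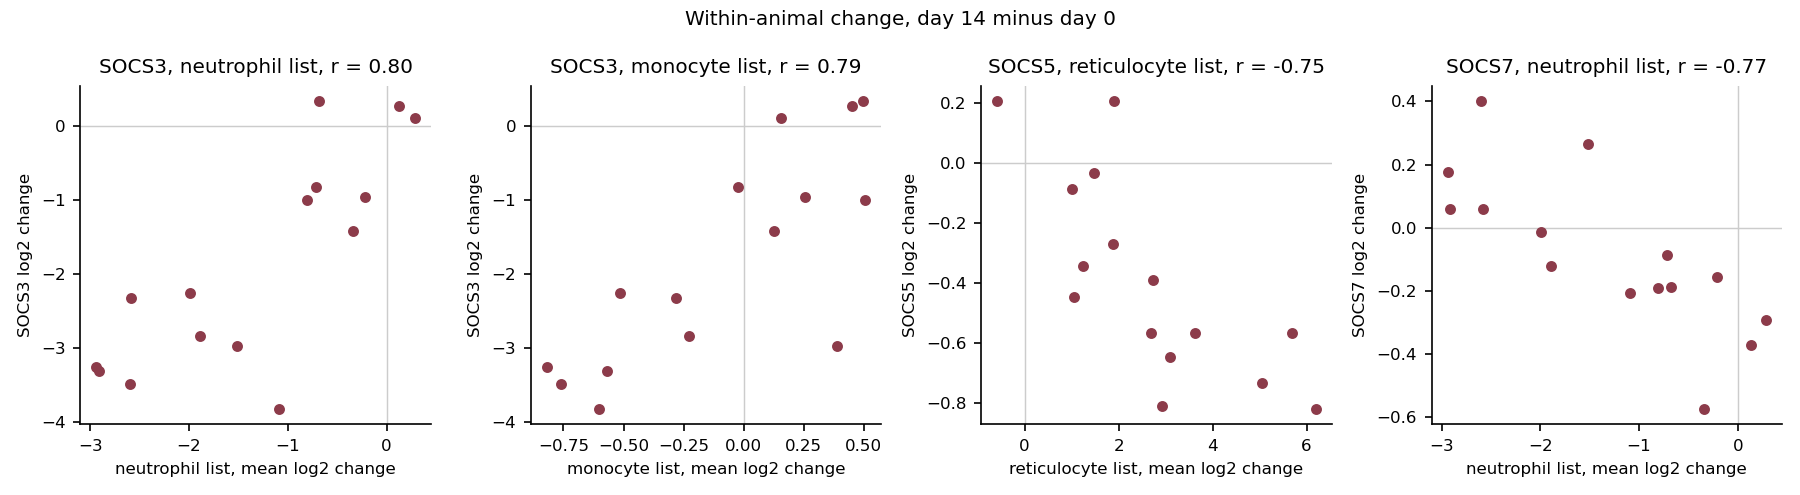
Change of SOCS3, SOCS5 and SOCS7 from day 0 to day 14 (log2) against the mean log2 change of a blood cell marker list, with 1 point per animal. SOCS3 rises along the neutrophil (r = 0.80) and monocyte (r = 0.79) lists, and SOCS5 and SOCS7 descend along the reticulocyte (r = −0.75) and neutrophil (r = −0.77) lists.

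Among the members themselves on day 0, 1 of 28 pairs passed correction. SOCS3 was high where SOCS7 was low (r = −0.74, adjusted p = 0.0277, permutation test over 28 pairs), but rho was −0.63 with adjusted p = 0.244, and r was −0.55 without the 2 animals farthest from the median of SOCS3. The next pairs, SOCS4 with SOCS5 (r = 0.69, adjusted p = 0.0609), SOCS1 with SOCS3 (r = 0.66, adjusted p = 0.072) and CISH with SOCS1 (r = 0.64, adjusted p = 0.072), did not pass the permutation test. Without TMM 4 pairs passed, and SOCS4, SOCS5 and SOCS7 then moved together with r between 0.89 and 0.96.

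Of 7 tested partners of the SOCS box ubiquitin ligase, 6 rose on day 14 vs. day 0 and 0 fell (median log2 fold change 0.47, beside −0.02 for all tested genes, of which 18.8% rose and 17.3% fell). On day 3 only ARIH2 rose, where 6.04% of all tested genes did. TCEB2, which encodes elongin B, went from 67.1 ± 50.9 FPKM (SD, n = 15) to 186 ± 97.7 (log2 fold change 1.601, standard error 0.35, adjusted p = 3.55e-04) and was higher in 13 of 15 animals. CUL5, the cullin of this ligase, went from 13.6 ± 1.42 to 18.6 ± 3.54 FPKM (0.43, adjusted p = 9.14e-04) and was higher in 14 animals. ARIH2, a ligase that works with CUL5, changed by 0.35 (adjusted p = 5.71e-04). These rises depended on scaling, since without TMM TCEB2 alone passed (1.18) and CUL5 and ARIH2 were at 0.01 and −0.08. With RNA integrity in the model 3 of the 7 passed upwards, with a median of 0.44, where 11.7% of all tested genes rose. Of 16 tested proteins that carry a SOCS box outside the family, 4 rose (ASB1, ASB2, ASB6 and ASB9) and 4 fell (WSB1, ASB7, SPSB1 and RAB40C). Without TMM ASB9 was the only one of the 4 that still rose, since ASB1 and ASB2 did not pass (0.12 and 0.27) and ASB6 turned sign (−0.19). WSB1 had the largest fall among them, from 95.4 ± 52.2 to 53.0 ± 6.65 FPKM (−0.68, adjusted p = 7.46e-04), lower in 14 animals, whereas ASB1 changed by 0.54 and ASB7 by −0.29.

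Of the 11 kinases and transcription factors upstream of SOCS induction, 4 passed the test on day 14, a share close to the 36% of all tested genes. Of the 4 JAKs only TYK2, which serves interferon and interleukin 12 receptors, passed on day 14, from 25.96 ± 9.05 to 19.7 ± 1.65 FPKM (−0.32, adjusted p = 0.0328). JAK3 and JAK1 had −0.19 and −0.08 and did not pass. Of 7 STATs, STAT5B (−0.57, adjusted p = 0.00266, lower in 13 of 15 animals) and STAT3 (−0.44, adjusted p = 0.0364, lower in 11) fell. STAT3, the main activator of SOCS3, went from 27.3 ± 12.8 to 19.1 ± 6.01 FPKM. STAT4, the interleukin 12 factor, rose (0.35, adjusted p = 0.0385), but was at −0.08 without TMM. None of the JAKs or STATs passed on day 14 when the RNA integrity number was a covariate, where 19.9% of all tested genes did. Their medians were then −0.09 and −0.17, beside −0.13 and −0.10 in the model without it. On day 3 the only STAT or JAK called was STAT6 (0.31, adjusted p = 0.0107, limma), named after its value was seen. The same test called 12.2% of all tested genes on day 3 (6.04% up).

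Of 14 tested cytokines that signal through JAKs, 1 fell and 1 rose on day 14 (7.14% each), beside 17.3% and 18.8% of all tested genes. With the animal as a block 2 fell and 3 rose, where 21.0% and 23.0% of all tested genes did. OSM, which encodes oncostatin M of the interleukin 6 family, went from 9.49 ± 10.3 FPKM on day 0 to 2.12 ± 0.834 on day 3 and 2.09 ± 0.598 on day 14 (−1.34 and −1.33, adjusted p = 0.0133 and 0.00412), with lower values in 12 of 15 animals on day 14. IFNG, named after its value was seen, rose from 0.461 to 1.18 FPKM (1.16), while IL7 (0.32, adjusted p = 0.0774) and IL23A (−0.05) did not pass. Of 31 receptor genes 5 rose and 9 fell, which is 16.1% and 29.0% of them, beside 18.8% and 17.3% of all tested genes. IL15RA, the specific chain of the interleukin 15 receptor, rose from 2.67 ± 1.49 to 8.73 ± 4.20 FPKM (1.67, adjusted p = 1.73e-06, higher in 14 animals), and LEPR, the leptin receptor, by 1.66 (adjusted p = 5.65e-05). The other 3 that rose, named after their values were seen, were IL12RB1, IL12RB2 and EPOR, and the first and second of these did not pass without TMM (0.29 and 0.33, adjusted p = 0.317 and 0.284). IFNGR2, a chain of the interferon gamma receptor, fell from 95.5 ± 41.4 to 54.9 ± 11.2 FPKM (−0.71, adjusted p = 2.81e-04, lower in 13 animals). With RNA integrity in the model 4 receptors passed upwards and 2 downwards, which is close to the 11.7% and 8.13% of all tested genes in that model, with the list median at −0.05 in both models.

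Of 14 genes for other brakes on the pathway 6 fell and 0 rose on day 14 (median −0.15), where 17.3% of all tested genes fell and 18.8% rose. CBL, a ubiquitin ligase for activated receptors, went from 26.8 ± 12.2 to 11.6 ± 3.13 FPKM (−1.12, adjusted p = 1.43e-05), lower in 13 of 15 animals. PIAS1, an inhibitor of STAT factors, and PTPRC, the leukocyte phosphatase CD45, changed by −0.43 (adjusted p = 3.6e-04) and −0.50 (adjusted p = 5.29e-04). On day 3 2 genes of this list rose and 3 fell, where 6.04% of all tested genes rose and 6.19% fell. Of 19 genes outside the family that STATs are known to induce, 3 rose and 8 fell on day 14 (median −0.37), beside the same 18.8% and 17.3% of all tested genes, and OSM counts in this list and among the ligands. BCL6, a repressor induced by STAT3, fell from 25.3 ± 20.9 to 6.91 ± 3.31 FPKM (−1.59, adjusted p = 7.79e-05), lower in 14 animals. ICAM1, an adhesion molecule, rose from 3.25 ± 1.28 to 9.83 ± 5.17 FPKM (1.51, adjusted p = 5.29e-07) and BCL2L1, a survival gene abundant in maturing red cells, from 51.4 ± 45.9 to 364 ± 324 FPKM (2.93, adjusted p = 1.39e-06), each higher in 15 of 15 animals. CXCL10, named after its value was seen, also rose (0.87) but did not pass without TMM (0.48, adjusted p = 0.175). Without TMM the counts of rises and falls on day 14 were 1 and 7 for other SOCS box proteins, 0 and 4 for JAKs, 0 and 6 for STATs, 1 and 3 for ligands, 3 and 16 for receptors, 0 and 11 for other brakes, and 2 and 13 for STAT-induced genes, where 7.79% of all tested genes rose and 41.8% fell. The directions of BCL6, ICAM1, BCL2L1, CBL, PIAS1 and PTPRC were the same without TMM.

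**Figure D5:**
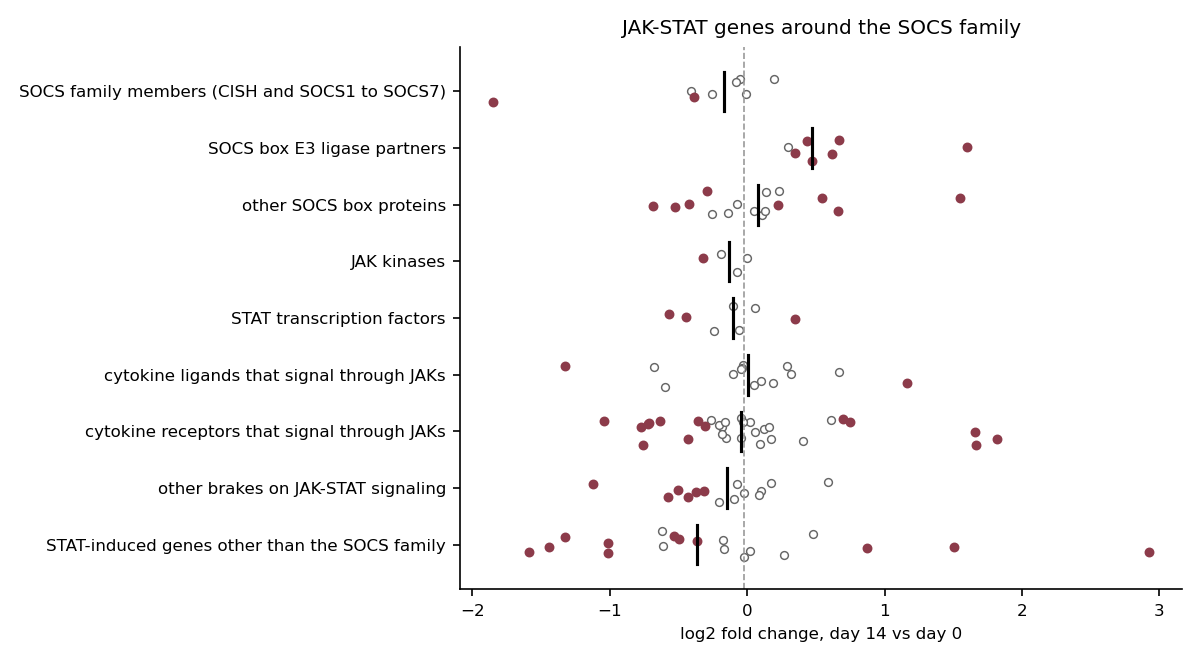
Log2 fold change on day 14 vs. day 0 of the tested genes in the SOCS family and in 8 lists of JAK-STAT genes, with 1 point per gene (filled at adjusted p under 0.05), a short bar at each list's median and a dashed line at the median of all tested genes, −0.02. The SOCS box ligase partners lie to the right with a median of 0.47, and the STAT-induced genes have a median of −0.37 with BCL2L1 as the rightmost point at 2.93.

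The genes whose levels over the 45 libraries followed each member most closely were found among the genes with a mean of at least 5 CPM (10938, or 10939 for SOCS1, which lies below that mean itself), and r is given as a description of libraries that share depth and cell mixture. SOCS3 was followed by SLC12A9, TLE3 and MAPK14 (r = 0.93 each), SOCS4 by ZBTB41, LCORL and TMTC3 (0.89, 0.89 and 0.88), and SOCS5 by LOC103215843 and INO80D (0.86 and 0.83). SOCS7 was followed by CRY2, MOGS and LOC103235079 (0.81, 0.80 and 0.80), CISH by SH3BP2, MMP17 and MAPKAPK3 (0.76, 0.75 and 0.75), and SOCS1 by PARP10, PSD4 and AMDHD2 (0.73, 0.72 and 0.71). SOCS6 reached 0.68 with LYPLA1, and SOCS2 had the loosest companions, with 0.57 for ASUN.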

How the data were processed

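Whole blood RNA of 15 vervets on days 0, 3 and 14 was depleted of ribosomal and globin RNA and sequenced as stranded paired-end libraries. Per the study's methods and the submitters' processing notes, the authors used bcl2fastq 2.17, aligned reads with STAR to the Chlorocebus sabaeus genome and counted fragments with HTSeq, whose versions are not given in the sources used here. The deposited values are FPKM. Every value above 0 was a whole number of fragments (tolerance 0.02; 100% of values), so fragments and CPM could be recovered. FPKM were scaled by TMM computed from those fragments, 0.1 was added, and log2 values were tested with limma 3.58.1 in R 4.3.3, with 1 mean per time point and Benjamini-Hochberg adjustment over 18753 genes. The limma steps and the exact sign-flip test (32768 flips) were tested on simulated data, and correlations used 100000 permutations (Python 3.11.15, NumPy 2.4.6, SciPy 1.17.1). The same animals were sampled at each time point, and after removal of time point means the mean r across genes was 0.328 between libraries of 1 animal and −0.0231 between animals.

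The members and gene lists were chosen with earlier results of these data known. Of each list the 3 genes with the lowest adjusted p on day 14 vs. day 0 and at least 5 CPM are named, and for each member up to 3 genes with the highest r; 1 of these is not reported here. Alternatives were the animal as a block, the RNA integrity number (read from the study's supplement) as covariate, no TMM, 1 or 0.01 added, no filter, a trend in the variance prior, limma-voom on the fragments, each animal left out, and, chosen after seeing the data, the omission of 2 libraries. No gene positions are given, because the annotation at hand is of another assembly, and genes are known by symbol. Libraries of a time point are separate animals, and the labels name no batch.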

Additional observations from a re-analysis of the deposited data

How the results depend on the processing

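SOCS3 on day 3 and SOCS3 and SOCS5 on day 14 vs. day 0 kept their direction and their call under each alternative, and whichever animal was left out (SOCS3 on day 14 between −2.03 and −1.71, SOCS5 between −0.46 and −0.37). With the animal as a replicate block 2 members were called on day 3 vs. day 0 (SOCS3 and SOCS5) and 3 on day 14 (with SOCS1); it changed no other call of a member. Leaving out each animal in turn gave 1 to 2 members on day 3, the 2 without animal 4. Without TMM 1 member was called on day 3 vs. day 0, as in the main model, but 7 were called from day 0 to day 14 and 5 from day 3 to day 14, 18 of 56 relations with marker lists passed in place of 7, and 4 of 28 pairs of members in place of 1. Signs that turned were all of members that did not pass the test in the main analysis. Without TMM these were SOCS2 on day 3 (−0.0065), day 14 vs. day 0 (−0.2266) and day 14 vs. day 3 (−0.2201), and SOCS4 (−0.2775) and SOCS6 (−0.3474) on day 14 vs. day 3. SOCS2 on day 3 was −0.0155 with the RNA integrity number and −0.0285 without the 2 libraries that stood apart. SOCS6 on day 14 vs. day 0 was 0.0161 with block and RNA integrity number and 0.0110 with limma-voom, and on day 14 vs. day 3 −0.0163 without the filter and −0.0427 without the 2 libraries. With animals left out in turn, CISH on day 3 lay between −0.1426 and 0.0188, SOCS2 on day 3 between −0.0328 and 0.1024, and SOCS6 between −0.0593 and 0.026 on day 3, −0.0773 and 0.0679 on day 14 vs. day 0, and −0.0602 and 0.058 on day 14 vs. day 3. The cause was not tested. Over all genes, the 2292 (day 3 vs. day 0), 6753 (day 14 vs. day 0) and 2498 (day 14 vs. day 3) calls became 3592, 8249 and 4455 with the block, 1435, 3728 and 1117 with the RNA integrity number, 2766, 4069 and 1840 with both, and 1596, 9290 and 7206 without TMM. SOCS1 rests on the fewest fragments of the family, 19 to 210 per library.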
